A study of Mus musculus with 2 samples.

Results

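The 10 genes described here encode enzymes of glycolysis and of the bisphosphoglycerate shunt, a side branch of glycolysis that is prominent in red cells. They are Hk1, Gpi1, Pfkl, Aldoa, Tpi1, Gapdh, Pgk1, Bpgm, Pklr and Pkm, listed in pathway order, and they were chosen by name as 10 of the 43346 genes with an Ensembl identifier in each gene table. All 10 were found, with 71 annotated transcripts among them. RNA was measured by paired-end sequencing of polyadenylated RNA in 2 libraries of Ter119+ erythroblasts, the nucleated precursors of red cells, from mouse fetal liver at 14.5 days of gestation. Ter119 is an antigen on the surface of cells of the red cell lineage. Both libraries belong to the same group, come from separate biosamples listed under the same donor entry, and hold pooled male and female embryos; no treatment or mutation is given, and the strain is not stated in the labels used here. They are called library 1 and library 2 after their biological replicate numbers, and the design holds no comparison between conditions.

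Glycolysis turns glucose into pyruvate in a fixed series of enzyme steps, and a mature red cell, which has no mitochondria, depends on it for ATP. The pathway divides after glyceraldehyde-3-phosphate dehydrogenase: phosphoglycerate kinase carries its product onward with a gain of ATP, whereas bisphosphoglycerate mutase turns the same product into 2,3-bisphosphoglycerate, which lowers the oxygen affinity of haemoglobin. Inherited deficiency of several of these enzymes, pyruvate kinase above all, causes haemolytic anaemia in humans. The last step of red cells is served by Pklr, whose erythroid (R) and liver (L) forms start from different first exons and share the rest of the gene.

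The tables held 51190555 and 44256287 expected counts in libraries 1 and 2, and 14155918 and 12299432 of these came from genes other than globins. Globin genes took 86.0% and 84.4% of TPM, a level corrected for transcript length that sums to the same total in each library. All 8 erythroblast markers examined were at 1 TPM or more in both libraries. Markers of other cell types of the fetal liver were low: summed over each list they came to 8.14 and 10.2 TPM for 6 hepatocyte genes, 4.40 and 6.18 TPM for 6 macrophage genes, 6.12 and 8.71 TPM for 5 neutrophil genes, 10.8 and 13.6 TPM for 5 megakaryocyte genes, 0.12 and 0.17 TPM for 4 leukocyte genes, 0.13 and 0.17 TPM for 3 endothelial genes, and 1.74 and 1.77 TPM for 4 early progenitor genes. Cd3e, the T cell marker, was at 0 counts in both libraries. Of these 33 markers, 7 were at 1 TPM or more in both libraries, and their part in the levels below was not tested.

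Most of the pathway lay at mean levels between 4.82 TPM (Pkm) and 58.6 TPM (Pklr), with Gapdh far above and Pgk1 far below. These are levels of a bulk sample, in which fewer cells of a type and less RNA per cell cannot be told apart. At a minimum of 1 TPM in both libraries, 9 of the 10 genes were detected, Pgk1 being the exception; among 21474 protein-coding genes 20.0% were detected. The median of the 10 mean levels was 28.5 TPM, against 5.02 TPM over the detected protein-coding genes. Together the 10 genes took 0.0764% and 0.101% of TPM in libraries 1 and 2, or 0.546% and 0.646% of the TPM outside the globin genes. Gapdh alone made up 69.3% and 72.8% of the TPM of the 10 genes.

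In order of mean TPM the genes ran Gapdh, Pklr, Hk1, Aldoa, Bpgm, Pfkl, Tpi1, Gpi1, Pkm and Pgk1. Of the 9 neighbouring pairs in this order, 5 had ranges over the libraries that did not overlap: Gapdh and Pklr, Pklr and Hk1, Hk1 and Aldoa, Gpi1 and Pkm, and Pkm and Pgk1. The ranges of Aldoa and Bpgm, Bpgm and Pfkl, Pfkl and Tpi1, and Tpi1 and Gpi1 overlapped. Within that group Aldoa lay above Pfkl, Tpi1 and Gpi1 with no overlap, and Pfkl lay above Tpi1 and Tpi1 above Gpi1 in both libraries. The intervals deposited by the authors nevertheless overlapped in library 1 for Pklr and Hk1 and for Pfkl and Tpi1. In library 2 those of Tpi1 and Gpi1 overlapped. Bpgm had no fixed place, since it stood between Gpi1 and Tpi1 in library 1 and above Aldoa in library 2.

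**Figure D1:**
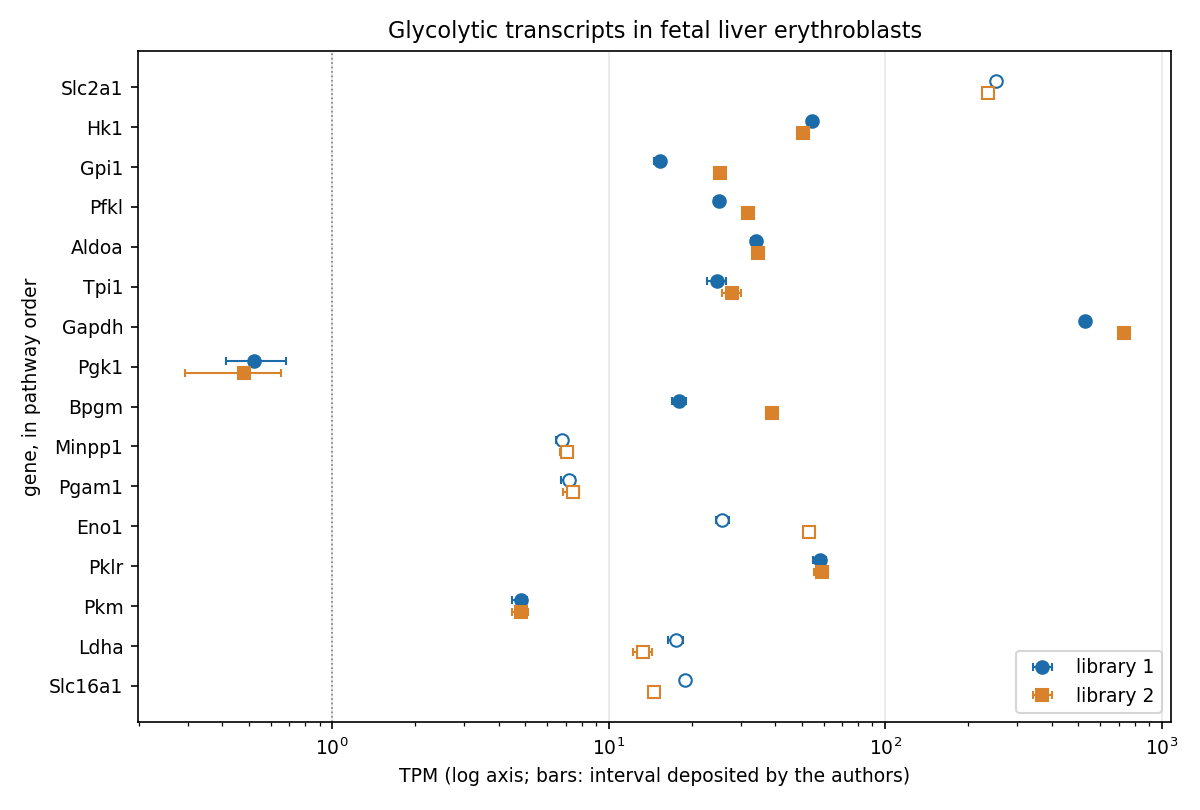
TPM (log axis) of the 10 genes (filled symbols) and of 6 other genes of the pathway (open symbols), in pathway order from top to bottom, in library 1 (circles) and library 2 (squares), with the interval deposited by the authors as bars; the dotted line is 1 TPM. Gapdh lies at 529 and 732 TPM and Pgk1 at 0.52 and 0.48 TPM, on either side of the rest.

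Hk1, which phosphorylates glucose at the entry of the pathway (chr10:62268855-62379908, minus strand, mm10), had 54.3 TPM in library 1, against 50.4 TPM in library 2, a mean of 52.4 ± 2.74 TPM (SD, n = 2). It was the only hexokinase at an appreciable level. Its share of the TPM of the 5 hexokinase genes was 99.7% ± 0.056 (SD, n = 2), with Hk2 at 0.03 TPM in both libraries and Hk3 at 0.09 and 0.13 TPM.

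The Hk1 counts were assigned to different transcripts in the libraries. Among them, 3 transcripts are shown because they begin with different first exons and then join the same exon (chr10:62315386-62315548), so that they encode different amino ends. The coding bases ahead of that shared exon are shown in capitals, followed by the first 30 bases of the shared exon, all on the minus strand.
Hk1-201: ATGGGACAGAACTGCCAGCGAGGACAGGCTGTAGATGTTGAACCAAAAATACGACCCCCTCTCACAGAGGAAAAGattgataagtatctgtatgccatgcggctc
Hk1-202: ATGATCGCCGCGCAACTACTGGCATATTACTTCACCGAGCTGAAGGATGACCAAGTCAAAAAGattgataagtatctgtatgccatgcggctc
Hk1-205: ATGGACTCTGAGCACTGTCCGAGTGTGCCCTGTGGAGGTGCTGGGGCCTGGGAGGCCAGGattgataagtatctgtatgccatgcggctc
The 63 capital bases of Hk1-202 encode the stretch by which the common form of the enzyme binds to mitochondria, the start of Hk1-201 is of a kind known from mouse spermatogenic cells, and the start of Hk1-205 corresponds to the red cell form described in human. Hk1-201 took 90.2% of the gene's TPM in library 1 and 46.2% in library 2, and Hk1-202 took 8.02% in library 1 and 52.8% in library 2. Counts gave the same picture: 16755 and 6217 for Hk1-201, and 1764 and 8399 for Hk1-202. Hk1-205 had 64.6 and 41.2 counts, 0.44% and 0.39% of the gene's TPM. The models also differ at the 3′ end, where Hk1-202 runs 253 bases beyond Hk1-201, so the shares do not rest on the first exons alone. An antisense gene, Hk1os, overlaps the first exons of both and was assigned 60 and 52 counts; as the strand setting is not given, its reads and those of Hk1 there cannot be told apart. Hk1 was the only one of the 9 genes with enough counts for this comparison (50 or more in both libraries, a minimum that Pgk1 missed) whose leading transcript by TPM differed between the libraries; the leader was the same for 8 of the 9, against 79.3% of 4787 genes.

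Gpi1, phosphoglucose isomerase, which turns glucose 6-phosphate into fructose 6-phosphate (chr7:34201330-34230336, minus strand), had 15.3 TPM in library 1, against 25.2 TPM in library 2, a mean of 20.3 ± 7.03 TPM (SD, n = 2). Nearly all of it was the coding transcript Gpi1-201, with 97.9% and 98.7% of TPM. This model has 2037 bases as quantified and 2884 bases in the GENCODE M21 annotation. Of the 31-base words of the M21 models of Gpi1, 26.5% also occurred in other genes. That share may not apply to the models that were quantified. Among those genes was the processed pseudogene Gm1840, which was assigned 14.4 and 28.1 counts beside 2784 and 3612 for Gpi1.

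Pfkl, the liver-type phosphofructokinase, which catalyses the committing step of glycolysis (chr10:77986947-78010083, minus strand), was at 24.98 and 31.97 TPM, a mean of 28.5 ± 4.94 TPM (SD, n = 2). It made up 93.2% ± 1.35 (SD, n = 2) of the TPM of the 3 phosphofructokinase genes. Pfkm, the muscle type, was at 1.51 and 2.65 TPM, and Pfkp, the platelet type, at 0.05 TPM in both libraries. None of the 5 genes on the list of phosphofructokinase regulators, Pfkfb1 to Pfkfb4 and Tigar, reached 1 TPM; the highest was Pfkfb2 at 0.36 and 0.35 TPM.

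Aldoa, aldolase A, which splits fructose 1,6-bisphosphate into the triose phosphates (chr7:126795234-126800751, minus strand), was at 34.2 and 34.8 TPM, a mean of 34.5 ± 0.445 TPM (SD, n = 2), with intervals of 32.8 to 35.3 and 33.2 to 36.0 TPM that overlapped. Aldoc, the brain isozyme, was at 0.10 and 0.25 TPM. Aldoa-201 led in both libraries with 73.9% and 66.8% of TPM. Aldoa-207, which in GENCODE M21 starts at an exon further upstream, held 1.68% of TPM in library 1 and 13.0% in library 2. It has 732 bases as quantified and 879 bases in M21, so that start may not apply to the model that was quantified.

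Tpi1, triosephosphate isomerase, which interconverts the triose phosphates (chr6:124810586-124814296, minus strand), was at 24.7 and 27.9 TPM, a mean of 26.3 ± 2.28 TPM (SD, n = 2). Of this, 72.9% and 70.0% fell to Tpi1-204, a model of 446 bases in the deposited tables that holds 39.5% and 41.0% of the counts. GENCODE M21 types Tpi1-204 as a retained-intron model, but with a length of 1552 bases. The type may thus not apply to the model that was quantified. With all of the gene's counts placed on the 1607-base coding transcript Tpi1-205, the level on the same scale was 9.43 and 10.04 TPM.

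Gapdh, glyceraldehyde-3-phosphate dehydrogenase (chr6:125161715-125166467, minus strand), had 529 TPM in library 1, against 732 TPM in library 2, a mean of 631 ± 144 TPM (SD, n = 2), which placed it at rank 38 of 21474 protein-coding genes. Its relative Gapdhs, the sperm isozyme, was at 0 counts in both libraries. Little of the Gapdh signal was assigned to a full-length transcript. Gapdh-206, a retained-intron model of 565 bases at the 3′ end of the gene, took 97.2% and 95.2% of TPM and 93.8% and 89.9% of counts. The 1420-base coding transcript Gapdh-203 took 1.14% and 1.87% of TPM and 3.33% and 5.28% of counts. Gapdh-212, a coding transcript of 884 bases that also has 7 exons, took 1.35% and 2.65% of TPM and 2.28% and 4.37% of counts. Of the 565 bases of Gapdh-206, 480 also belong to Gapdh-203. The intron it keeps is shown in capitals with 30 bases of the coding exon on either side (chr6:125162364-125162507, minus strand), as the only internal stretch that separates it from the spliced messenger RNA.
Gapdh-206: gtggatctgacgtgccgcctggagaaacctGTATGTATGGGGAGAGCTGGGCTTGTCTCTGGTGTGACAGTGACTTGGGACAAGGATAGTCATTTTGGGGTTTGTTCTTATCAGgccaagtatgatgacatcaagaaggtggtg

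Reads of Gapdh were also shared with copies elsewhere in the genome. The processed pseudogene Gm13394 (chr2:28933610-28934609, 1000 bases) was assigned 17518 counts in library 1 and 14019 in library 2, beside 22678 and 25343 for Gapdh, that is 43.6% and 35.6% of the sum of both genes. Its sequence matches the 999 coding bases of Gapdh with 1 mismatch and no gap, written A346C with positions counted from the first base of the Gapdh coding sequence, and the longest identical run is 653 bases. A 60-base stretch around the mismatch, which is in capitals, is set side by side for the pair.
Gapdh: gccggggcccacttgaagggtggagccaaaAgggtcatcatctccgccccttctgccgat
Gm13394: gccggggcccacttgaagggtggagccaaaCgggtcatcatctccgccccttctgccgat
In all, 285 pseudogenes shared 31-base words with Gapdh, and together they held 17671 and 14214 counts, nearly all of it in Gm13394. Placing the counts of Gapdh and of these pseudogenes on Gapdh-203 gave 323 and 404 TPM in libraries 1 and 2, a mean of 364 ± 57.9 TPM (SD, n = 2), and the counts of Gapdh alone gave 181 and 259 TPM. Gapdh was the highest of the 10 genes under each of these measures, and its level moved up to 2.86-fold between them.

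**Figure D2:**
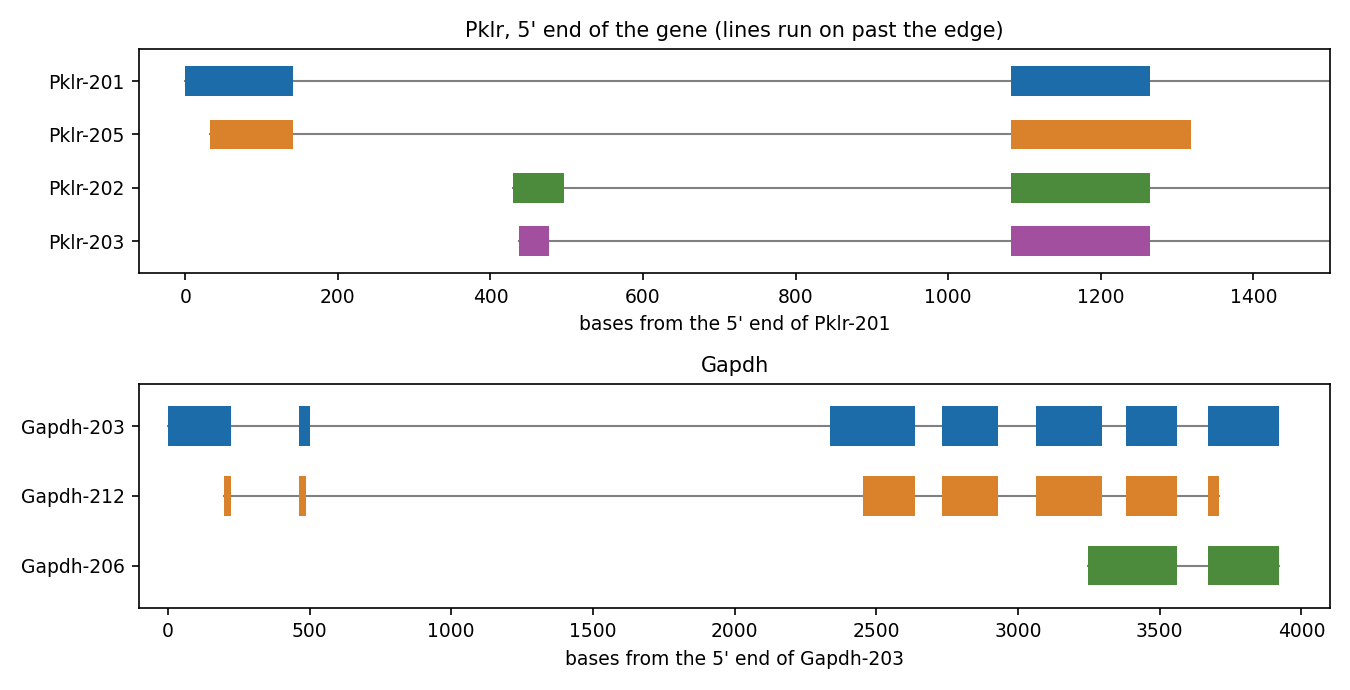
Exons (boxes) of annotated transcripts, to scale, as bases from the 5′ end of the first transcript in each panel: the 5′ part of Pklr (top) and Gapdh (bottom). Pklr-201 and Pklr-205 share the upstream first exon and Pklr-202 and Pklr-203 start further downstream, while Gapdh-206 covers the 3′ end of the gene with 84 intron bases that Gapdh-203 lacks.

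Pgk1, phosphoglycerate kinase, the first step of glycolysis to yield ATP (chrX:106187100-106203699, plus strand), had 0.52 TPM in library 1, against 0.48 TPM in library 2, a mean of 0.50 ± 0.028 TPM (SD, n = 2). These levels rest on 81.6 and 48.0 expected counts. The deposited intervals were 0.41 to 0.68 and 0.29 to 0.65 TPM, so both libraries placed Pgk1 below 1 TPM. Pgk2, the testis isozyme, had 1 count in library 1 and 0 in library 2. Of the 12 enzyme steps on the list, phosphoglycerate kinase had the lowest summed level, 0.53 and 0.48 TPM, and the next lowest, phosphoglycerate mutase, had 7.20 and 7.40 TPM.

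Sequence sharing also touches Pgk1. A share of 54.7% of its 31-base words occurred in 2 processed pseudogenes, of which Pgk1-rs7 was identical to the Pgk1 coding sequence over 1250 aligned bases. These pseudogenes were nevertheless assigned only 11.4 counts in library 1 and 0 in library 2, and with them added Pgk1 stood at 0.56 and 0.37 TPM on its longest coding transcript. The mean GC content of the Pgk1 transcripts was 48.1%, in a range (45% to 50%) where 16.6% of protein-coding genes were detected, and Bpgm, with 49.9%, lay in the same range. The part of GC content and of read sharing in the low Pgk1 level was not tested.

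Bpgm, bisphosphoglycerate mutase, the enzyme that makes 2,3-bisphosphoglycerate (chr6:34476207-34505613, plus strand), had 18.0 TPM in library 1, against 39.1 TPM in library 2, a mean of 28.6 ± 14.9 TPM (SD, n = 2). Relative to its mean it had the widest spread of the 10 genes. Transcripts for the shunt enzyme thus outnumbered those for Pgk1, the enzyme that competes for the same substrate, by 34.6-fold in library 1 and 81.5-fold in library 2, and Bpgm was above Pgk1 in both. Bpgm also stood above Pgam1, the phosphoglycerate mutase of glycolysis, by 2.50-fold and 5.29-fold, and above Minpp1, a phosphatase that can remove 2,3-bisphosphoglycerate, at 6.80 and 7.09 TPM. No 31-base word of Bpgm occurred in another gene. Bpgm-201 held 52.3% and 53.5% of its TPM and 83.1% and 83.9% of its counts, and most of the rest lay in Bpgm-205, a coding model of 596 bases.

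Pklr, the pyruvate kinase of red cells and liver, which makes pyruvate and ATP in the last step (chr3:89136142-89146784, plus strand), had 58.1 TPM in library 1, against 59.1 TPM in library 2, a mean of 58.6 ± 0.651 TPM (SD, n = 2). Pkm, the pyruvate kinase of most other tissues (chr9:59656368-59679375, plus strand), was at 4.80 and 4.83 TPM, a mean of 4.82 ± 0.021 TPM (SD, n = 2). Pklr therefore stood 12.1-fold and 12.2-fold above Pkm per length. In CPM, expected counts scaled to the same library total with no correction for length, the ratio was 3.92 and 6.005, and with each gene's counts placed on its longest coding transcript it averaged 4.12 ± 1.22 (SD, n = 2). Pklr was higher than Pkm in both libraries by every measure, while the size of the difference depended on how length was treated. Of the 31-base words of Pklr, 21.1% also occurred in 2 other genes, 1 of which had 10 or more counts. The part of this sharing in the Pklr level was not tested.

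The transcripts of Pklr that begin at different first exons are of unequal length in the annotation. The upstream first exon encodes the amino end known as R, of red cells, and the downstream one that known as L, of liver; their coding bases are in capitals, followed by 30 bases of the shared second exon.
Pklr-201: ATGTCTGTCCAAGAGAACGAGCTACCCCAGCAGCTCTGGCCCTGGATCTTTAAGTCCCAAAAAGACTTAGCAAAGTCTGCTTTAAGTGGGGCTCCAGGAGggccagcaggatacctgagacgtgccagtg
Pklr-202: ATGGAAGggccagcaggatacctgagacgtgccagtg
The upstream exon took 80.2% of the gene's TPM in library 1 and 48.6% in library 2, but only 28.7% and 10.2% of its counts. Most of that lay in Pklr-205, a processed transcript of 345 bases, with 45.5 and 28.4 TPM from 903 and 452 counts. Its first exon starts inside that of Pklr-201. It holds the whole shared second exon and runs on into the intron after it. The full-length upstream form, Pklr-201, had 307 and 63.4 counts, and the full-length downstream form, Pklr-202, had 2998 and 4399. In library 1 the upstream start thus led by TPM and the downstream start by counts. In library 2 the downstream starts led by counts. They led by TPM only once Pklr-203, a coding model of 349 bases, was added to Pklr-202. These took 16.0% and 35.4% of TPM, against 48.6% for the upstream start. The first exon of Pklr-203 ends at base 89136618, and the coding bases printed for Pklr-202 begin at base 89136631. Pklr-203 therefore lacks the L coding bases shown. Among the full-length models the downstream start, Pklr-202, was ahead in both libraries, at 11.1 and 20.9 TPM against 1.19 and 0.31 TPM for Pklr-201. The full-length models also differ at the 3′ end, which lies at base 89146594 for Pklr-201 and at base 89146784 for Pklr-202. Their shares therefore do not rest on the first exons alone.

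The regions ahead of both first exons are given as RefSeq promoters (GRCm38, plus strand), since the R and L starts are known to be driven by separate promoters. Capitals mark AGATAA, the motif of the GATA factors, and CACCC, the motif of the Klf1 type, on either strand; the upstream window ends at the base before the transcript start, and the downstream window at the base before Pklr-202 begins.
Pklr upstream, chr3:89135892-89136141: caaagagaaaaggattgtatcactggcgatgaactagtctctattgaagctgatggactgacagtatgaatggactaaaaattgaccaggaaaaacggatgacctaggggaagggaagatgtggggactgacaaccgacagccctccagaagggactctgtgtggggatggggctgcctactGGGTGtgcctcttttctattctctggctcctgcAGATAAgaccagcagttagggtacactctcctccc
Pklr downstream, chr3:89136373-89136571: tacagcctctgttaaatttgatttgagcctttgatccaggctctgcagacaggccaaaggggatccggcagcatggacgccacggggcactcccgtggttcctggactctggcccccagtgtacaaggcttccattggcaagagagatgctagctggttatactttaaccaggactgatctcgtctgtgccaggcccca
The upstream window held AGATAA at 35 to 30 bases and CACCC, read on the other strand as GGGTG, at 68 to 64 bases before the start, and the 199 bases printed for the downstream window held neither. Over 32851 RefSeq promoters of 250 bases, AGATAA occurred in 9.99% and CACCC in 52.0%. Among the 15 promoters of the 10 genes, AGATAA occurred in 1, that of Pklr, and CACCC in 8, belonging to 6 genes. A match is a description of these letters and not evidence of a bound site.

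Pkm forms differ by mutually exclusive exons of 167 bases, known as M1 and M2, and the counts of Pkm fell to the M2 type alone. Bases that differ between them, 64 of 167, are in capitals; Pkm-201 has the downstream, M2-type exon (chr9:59675568-59675734) and Pkm-202 the upstream, M1-type exon (chr9:59675029-59675195), both on the plus strand.
Pkm-201: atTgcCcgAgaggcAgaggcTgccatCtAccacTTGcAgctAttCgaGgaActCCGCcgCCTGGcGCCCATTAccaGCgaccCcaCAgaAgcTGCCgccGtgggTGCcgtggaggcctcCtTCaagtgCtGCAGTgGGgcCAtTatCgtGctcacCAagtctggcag
Pkm-202: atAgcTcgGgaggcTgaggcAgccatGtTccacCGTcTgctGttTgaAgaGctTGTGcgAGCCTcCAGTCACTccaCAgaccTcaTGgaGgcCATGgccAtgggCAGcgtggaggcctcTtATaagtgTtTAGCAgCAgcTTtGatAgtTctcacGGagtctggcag
Pkm-201 received all 1075 and 844 counts of the gene, and Pkm-202 none in either library. A count of 0 leaves room for as many as 3 counts (counting error only). Inside the transcripts, only reads that touch the 167-base exons can tell the forms apart, and their number is not given. The 0 therefore sets no limit on Pkm-202 as a share of all counts of the gene. By posterior mean TPM, Pkm-202 held 0.49% of the gene in library 1 and 0.44% in library 2.

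**Figure D3:**
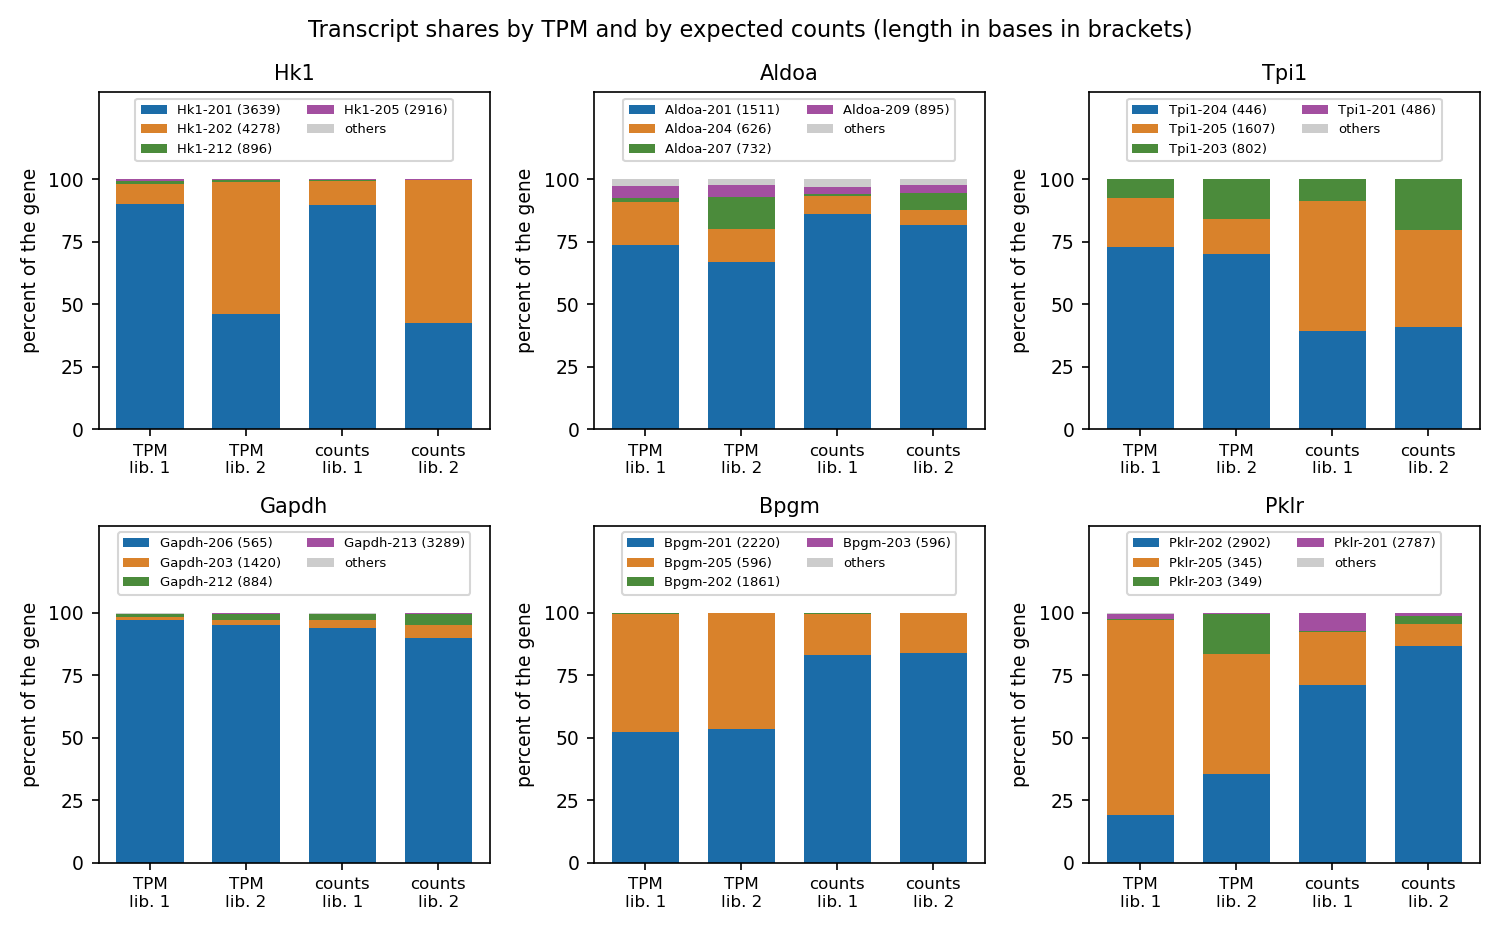
Percent of each gene's TPM (left pair of bars) and of its expected counts (right pair) that falls to each transcript, in libraries 1 and 2, for 6 of the genes, with transcript lengths in bases in brackets. Pklr-205 and Tpi1-204, both short, take larger shares of TPM than of counts, and Hk1-201 takes 90.2% of TPM in library 1 and 46.2% in library 2.

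A transcript that GENCODE M21 does not annotate as coding led the TPM in both libraries for 3 of the 9 genes, Gapdh, Tpi1 and Pklr, against 18.1% of 4718 protein-coding genes. For Tpi1 the M21 model differs in length from the quantified one. These were also the genes whose level changed most when all counts were placed on the longest coding transcript: the deposited mean TPM was 2.86-fold higher for Gapdh, 2.70-fold for Tpi1 and 2.95-fold for Pklr, and between 1.00-fold and 1.57-fold higher for the other 7 genes. The order then ran Gapdh, Hk1, Aldoa, Pfkl, Gpi1, Pklr, Bpgm, Tpi1, Pkm and Pgk1. Gapdh at the top and Pkm and Pgk1 at the bottom kept their places, and Pklr moved from the second place to the sixth.

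**Figure D4:**
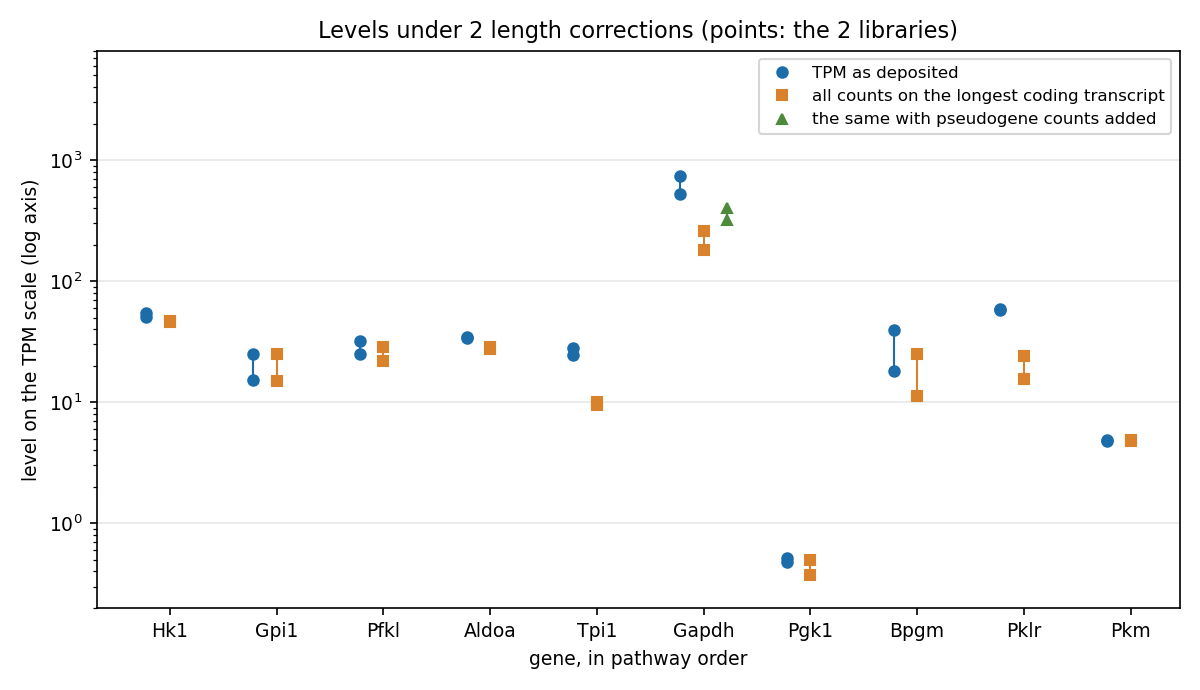
Level of each gene in the 2 libraries (points joined by a line) on the TPM scale (log axis), as deposited, with all counts of the gene placed on its longest coding transcript, and, for Gapdh, with pseudogene counts added. Gapdh, Tpi1 and Pklr are 2.70-fold to 2.95-fold lower on the longest coding transcript, and Pgk1 is lowest under both.

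Of 31 other listed genes of the pathway, 10 were at 1 TPM or more in both libraries and 5 had no count in either, among them Gapdhs, Pgam2, Eno2 and Eno4. In each of 9 steps with several isozymes the same gene led in both libraries, with mean shares of TPM from 92.4% (Pklr) up to all of it (Gapdh and Pgam1). By counts, Pklr took 79.7% and 85.7% of its step and Pkm the rest. Eno1, enolase, was at 25.6 and 53.2 TPM, with 97.9% ± 0.885 (SD, n = 2) of the TPM of the 4 listed enolases. That share leaves out Eno1b, a near copy that was not on the list and was named after its values were seen, at 10.08 and 15.04 TPM. Ldha, which reduces pyruvate to lactate, was at 17.5 and 13.3 TPM, against 0.01 and 0.22 TPM for Ldhb. Glucose entry was represented by the transporter Slc2a1 at 253 and 236 TPM, about 4.65-fold and 4.69-fold the level of Hk1, and by Slc2a4 at 7.73 and 6.87 TPM. Lactate export was represented by Slc16a1 at 18.9 and 14.5 TPM, Slc16a3 at 8.75 and 8.94 TPM and Bsg, the chaperone of these transporters, at 854 and 946 TPM.

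The libraries differed beyond counting error for 8 of the 10 genes (two-sided exact conditional binomial test on rounded counts with edgeR scaling, Benjamini-Hochberg adjusted over 10955 genes, threshold 0.05), against 44.9% of all genes tested. That share includes genes with few counts. With a minimum of 100 counts over both libraries, 9 of the 10 genes passed, against 3888 of 6945 genes tested. The test sets these libraries side by side and not conditions. Hk1, Aldoa and Pkm were higher in library 1, where 22.5% of genes tested were higher, and Gpi1, Pfkl, Gapdh, Bpgm and Pklr were higher in library 2, where 22.4% were. The median absolute log2 ratio was 0.28 over the 10 genes and 0.24 over the 5257 genes that had at least 100 counts in each library, and the median log2 ratio of library 1 over library 2 was -0.07 over the 10 genes and 0.01 over all tested.

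Bpgm differed most, with 2306 counts in library 1 and 3960 in library 2, a log2 ratio of -0.97. It was 1.96-fold higher in library 2 (95% exact interval 1.86 to 2.06, adjusted p = 1.57e-149). Gpi1 was 1.48-fold higher in library 2 (1.41 to 1.56, adjusted p = 1.4e-53) and Pklr 1.37-fold higher (1.32 to 1.43, adjusted p = 9.36e-51), although the TPM of Pklr was nearly equal in the libraries. Gapdh was 1.28-fold higher in library 2, while Gm13394 was 1.09-fold higher in library 1; the sum of both was 1.12-fold (1.10 to 1.13) higher in library 2. Pfkl was 1.15-fold higher in library 2.

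Hk1 was 1.11-fold and Aldoa 1.16-fold higher in library 1, and Pkm 1.12-fold (1.02 to 1.22, exact binomial adjusted p = 0.0398). For Aldoa and Pkm the TPM did not follow this direction, with 34.2 and 34.8 TPM and 4.80 and 4.83 TPM. Tpi1 (log2 ratio 0.07, exact binomial adjusted p = 0.31) and Pgk1 (log2 ratio 0.58, exact binomial adjusted p = 0.0598) did not pass. The call of Pkm was lost with scaling to total counts (log2 ratio 0.14, adjusted p = 0.0764, exact binomial test) and with no count minimum above 1 (log2 ratio 0.16, adjusted p = 0.0563, exact binomial test), against a log2 ratio of 0.16 in the reported test. Pgk1 passed when genes under 100 counts were left out (adjusted p = 0.0497, exact binomial test). Of the other pathway genes 20 were tested, of which 5 were higher in library 1 and 4 in library 2; the largest difference among those over 100 counts was that of Eno1, with 2370 counts in library 1 and 5102 in library 2 and 2.46-fold higher in library 2.

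**Figure D5:**
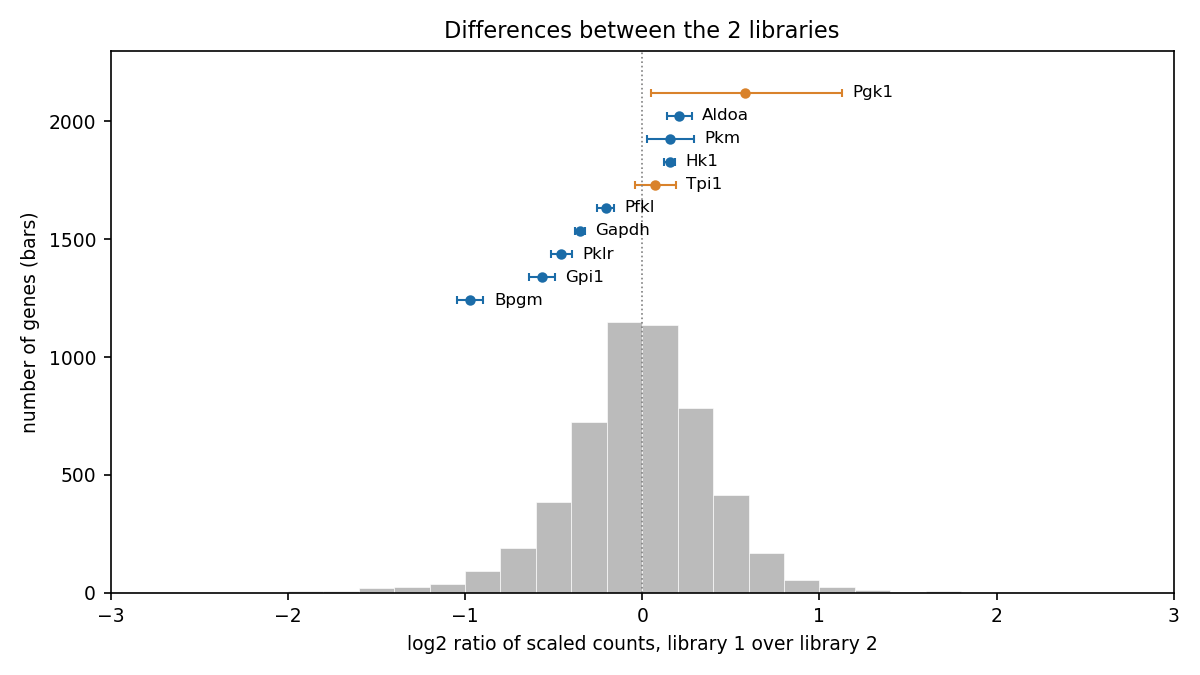
Log2 ratio of scaled counts, library 1 over library 2, for the 10 genes (points with 95% exact intervals; blue, past the threshold; orange, not) above a histogram of the same ratio over the 5257 genes that had at least 100 counts in each library. Bpgm lies at -0.97, furthest to the left of the 10, and Pgk1 has the widest interval. The height of the points carries no value.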

How the data were processed

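Per the listing deposited beside the tables, reads were aligned to mm10 with the GENCODE M4 annotation; no source used here names the aligner, the quantifier, a strand setting or versions (not given in the sources used here). Columns, per the file headers, are those that RSEM writes. The authors deposited, per library, expected counts (reads that fit several transcripts are divided among them, so values need not be whole), TPM and FPKM (both corrected for length), the percent of each gene's TPM per transcript, and interval bounds on the TPM scale, a signal whose level is not stated. Because reads are divided, levels of genes with near-identical copies are uncertain, and without a known strand setting antisense overlap is too.

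Symbols, exons, transcript types and sequences came from GENCODE M21 and RefSeq tables of the same assembly. Of the 71 transcripts, 67 had the same length in M4 and M21. The others were Gpi1-201, Aldoa-207, Tpi1-204 and Pkm-202. Expected counts were rounded for the exact binomial test, with library sizes scaled by edgeR 4.0.16 (R 4.3.3) with no count minimum. The test and its adjustment covered genes whose counts in the 2 libraries sum to 10 or more. Intervals and p-values cover counting error only. DESeq2 1.42.0 size factors, total counts, other minima, FPKM, posterior mean TPM and CPM were alternatives; placing counts on the longest coding transcript, adding pseudogene counts and summing transcripts by first exon were chosen after seeing the data. Python 3.11.15, numpy 2.4.6, pandas 2.3.3, scipy 1.17.1 and biopython 1.88 were used, and the test was checked on simulated data. The genes and lists were chosen with earlier results of these data known: all 10 genes, any of 31 other pathway genes, and up to 3 pseudogenes per gene with 10 or more counts are named. Some listed genes are not reported here.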

Additional observations from a re-analysis of the deposited data

How the results depend on the processing

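Detection (8 to 9 of the 10 genes), the leading isozyme at each of 9 steps, the number of genes that differ between the libraries (7 to 9) and the excess of Bpgm over Pgk1 were within 1.5 times or within the spread of the libraries under every alternative run for them. Of the 10 places in the order by mean TPM, 3 were unchanged in CPM and 3 with counts on the longest coding transcript; the alternatives themselves drop or replace the length correction. The share of TPM was 0.596% outside the globin genes, and the 10 genes took 0.137% of counts. The ratio of Pklr to Pkm was 4.96 in CPM and 4.12 on the longest coding transcript. With each library alone, 7 to 8 places in the order were unchanged, 9 genes were detected, the share of TPM was 0.0764% to 0.101%, 9 isozymes led as before, 7 to 8 leading transcripts were the same by TPM and counts, Bpgm to Pgk1 was 34.6 to 81.5, and Pklr to Pkm was 12.1 to 12.2. No paired analysis was possible because the series holds 1 group. Counting error limits Pgk1 most, and what the 2 libraries can show of spread is small.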
